A study of Arabidopsis thaliana with 21 samples.

Results

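The genes described here are 43 Arabidopsis thaliana loci of the heat shock response. They encode molecular chaperones, the co-chaperones that work with them, the heat shock factors (HSFs) that switch on their genes, and 4 further genes of the same response. They were listed by locus identifier, with earlier results of these data known, and all 43 were found among the 32833 genes of the count table. By class there were 3 HSP100/CLPB disaggregases, 4 HSP90s, 5 HSP70s, 13 small heat shock proteins (small HSPs), 7 HSFs, 7 co-chaperones and 4 other targets. By the compartment of the protein, 34 belonged to the cytosol and nucleus, 4 to mitochondria, 2 to plastids, 2 to the endoplasmic reticulum (ER) and 1 to peroxisomes. RNA came from whole seedlings that were 7 days old and grew in liquid culture, and the labels name no heat or other stress. The groups were the transgenic lines H89C4-7, H89C11-7 and H89C23-10, the transgenic lines NEET10-10, NEET5-4 and NEET11-9, and the wild type Col, with 3 libraries in each of the 7 groups. AtNEET (AT5G51720) is an iron-sulfur cluster protein, and the series title calls the H89C form dominant-negative. The labels give no promoter, tag, copy number or insertion site for any line. Separate cultures are not stated for the libraries of a group, so p-values measure only the spread between libraries, which may be technical.

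Chaperones bind proteins that are unfolded or not yet folded. Small HSPs hold unfolded proteins without using ATP, HSP70s and their J-domain partners refold them, HSP100 disaggregases pull proteins out of aggregates, and HSP90s finish the folding of kinases, receptors and other clients. HSFs bind heat shock elements, inverted repeats of the unit GAA, upstream of these genes. In plants HSFA1 proteins are the first activators, HSP70 and HSP90 hold them inactive in unstressed cells, HSFA2 and HSFA3 prolong the response, and class B factors mostly repress it. Many of these genes are also used without heat, for example in maturing seeds, under oxidative stress and under intense light.

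A heat shock element was searched on both strands in the 300 bases before each annotated gene start, as GAANNTTC or TTCNNGAA, pairs of inverted GAA units that read the same on both strands, and as 3 such units in a row, which contain both motifs overlapping. Of the 43 members, 19 (44.2%) held either motif, beside 19.3% of 27443 protein-coding genes. GAANNTTC was found in 27.9% of members and 11.5% of all genes, and TTCNNGAA in 37.2% and 9.38%. Runs of 3 units were found upstream of 7 members (16.3%), namely HSP90.1, HSP17.4, HSP17.6C, HSFA2, HSFA7A, HSFA7B and GOLS1, beside 0.485% of all genes. A match is a description of letters and not a measured binding site, and annotated leaders after the gene start were not searched. The following stretches of 150 bases end at the base before the gene start, and capitals mark the motif letters. HSFA2, HSP17.6C, HSP17.4 and GOLS1 are shown for their runs of 3 units and APX2 for its separate pairs. HSP70-4 and HSC70-3 are shown for large changes and no match. HSFA7A and HSFA7B, which also have runs of 3 units, are not shown. They are from RefSeq, build TAIR10.1, 5′ to 3′ on the strand of the gene. The HSFA2 stretch is chr2:11135474-11135623 on the plus strand. The HSP17.6C stretch is chr1:19980149-19980298 on the plus strand. The HSP17.4 stretch is chr3:16984868-16985017 on the minus strand. The GOLS1 stretch is chr2:19370479-19370628 on the minus strand. The APX2 stretch is chr3:2956006-2956155 on the plus strand. The HSP70-4 stretch is chr3:3993887-3994036 on the minus strand. The HSC70-3 stretch is chr3:2905948-2906097 on the minus strand. HSP90.1 is not shown because its gene record starts at the coding sequence.
HSFA2: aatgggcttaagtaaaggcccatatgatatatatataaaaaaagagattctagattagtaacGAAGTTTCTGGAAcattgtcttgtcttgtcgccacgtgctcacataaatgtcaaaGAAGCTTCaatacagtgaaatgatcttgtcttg
HSP17.6C: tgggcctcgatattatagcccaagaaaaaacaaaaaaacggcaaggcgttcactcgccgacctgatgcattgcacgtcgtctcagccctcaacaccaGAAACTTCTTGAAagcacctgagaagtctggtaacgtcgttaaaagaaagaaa
HSP17.4: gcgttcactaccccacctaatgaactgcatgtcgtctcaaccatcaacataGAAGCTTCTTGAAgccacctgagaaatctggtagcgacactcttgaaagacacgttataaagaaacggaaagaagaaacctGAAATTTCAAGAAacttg
GOLS1: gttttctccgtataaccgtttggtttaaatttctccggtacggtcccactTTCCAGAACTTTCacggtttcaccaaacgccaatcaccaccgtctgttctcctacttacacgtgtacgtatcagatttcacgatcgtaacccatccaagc
APX2: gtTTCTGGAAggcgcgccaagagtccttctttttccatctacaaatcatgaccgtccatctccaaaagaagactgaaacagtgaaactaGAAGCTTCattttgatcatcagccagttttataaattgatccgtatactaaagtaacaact
HSP70-4: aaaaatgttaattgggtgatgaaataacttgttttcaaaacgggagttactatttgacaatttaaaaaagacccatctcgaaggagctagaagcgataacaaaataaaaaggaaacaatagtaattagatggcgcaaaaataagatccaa
HSC70-3: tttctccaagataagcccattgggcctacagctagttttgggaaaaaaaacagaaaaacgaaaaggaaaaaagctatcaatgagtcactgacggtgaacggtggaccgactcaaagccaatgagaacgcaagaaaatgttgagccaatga
HSFA2, HSP17.6C and HSP17.4 have a run of 3 units in the order GAA, TTC, GAA, and the GOLS1 run begins with TTC. APX2 has 2 separate pairs.

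Library depth was between 17.9 and 24.7 M (mega) reads, except for replicate 3 of Col with 8.24 M. In each of Col and NEET10-10, replicate 1 was unlike the other replicates, and these are called the libraries that stand apart. The annotation places a gene on the opposite strand across part of HSP101, CLPB3, HSC70-3, HSP17.4, HSFA3, HSFB2B, HOP3, FES1A, AT2G20560, ERDJ3A, MBF1C and GOLS1, and the strand setting of the counting is not given in the sources used here, so reads of such pairs cannot be told apart. HSC70-3 and HSA32 also overlap a gene on their own strand. As a check of the labels, AtNEET (chromosome 5, 21009347 to 21010345 of TAIR10.1, plus strand) had 16100.2 ± 895 normalized counts in H89C4-7, 2380.4 ± 109.8 in H89C11-7 and 1299 ± 74.0 in H89C23-10 (SD, n = 3 each). It had 32837 ± 1901 in NEET10-10, 18191 ± 528 in NEET5-4 and 332 ± 5.78 in NEET11-9, against 261 ± 93.9 in Col (SD, n = 3 each). Reads of a transgene and of the endogenous gene are counted together here. AtNEET rose in H89C4-7, H89C11-7, H89C23-10, NEET10-10 and NEET5-4 (limma adjusted p at most 8.1e-13). In NEET11-9 it was called higher by less, at a log2 change of 0.40 ± 0.127 SE (limma adjusted p = 0.04). That call was lost without Col replicate 2 or 3 and without any 1 of the NEET11-9 libraries (log2 changes 0.19 to 0.41, limma adjusted p from 0.09 to 0.24).

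Most of the tested heat shock genes rose in H89C4-7 and H89C11-7 and most fell in NEET5-4 relative to Col, under conditions with no heat treatment named in the labels. Of the 43 members, 38 had at least 10 normalized counts in at least 3 libraries and were tested. The 5 that were not were the organellar small HSPs HSP21, HSP22.0, HSP23.6 and HSP26.5 and the factor HSFA7B. Among the 38, HSP17.4 and HSP17.6II passed only through H89C libraries and APX2 only through Col libraries, so these had to differ and are described below with no test. Without these 3, 31 of 35 members rose and 0 fell in H89C4-7 (median log2 change 0.79), and 1 rose and 26 fell in NEET5-4 (median -0.63). Higher and lower counts without them were 21 and 2 in H89C11-7 and 19 and 0 in H89C23-10. They were 3 and 19 in NEET10-10 and 6 and 4 in NEET11-9. The counts that follow include these 3 members. In H89C4-7, 33 members rose and 1 fell (median log2 change 0.94), beside 33.6% and 33% of all 20699 tested genes. Since most tested genes were called in this line, a limit of 2-fold was also applied: 19 members rose and 1 fell by at least that much, beside 6.21% and 9.66% of all tested genes. H89C11-7 had 23 members higher and 3 lower (median 0.32), beside 19.8% and 17.9% of all genes. H89C23-10 had 19 higher and 1 lower (median 0.33), beside 11.5% and 10.5%. Among the NEET lines, NEET10-10 had 3 members higher and 21 lower (median -0.39), beside 15.6% and 14.7% of all genes. When NEET10-10 and Col alone were fitted, 0 members were higher and 13 lower. That fit called 1425 genes higher and 1072 lower of all 20699, fewer than the main fit. NEET5-4 had 1 higher and 28 lower (median -0.63), beside 14.1% and 16.9%. NEET11-9 had the fewest calls, with 6 higher and 5 lower (median 0.08), beside 4.49% and 6.44%. A normalized count is a gene's read count after the authors' division by a size factor for that library. Log2 and fold changes are on the log2(normalized count + 1) scale, on which changes at low counts appear too small. The median log2 change of all tested genes lay between -0.002 and 0.0072 in the 6 lines. All calls are limma-trend tests at an adjusted p under 0.05, and the 6 comparisons share the same 3 Col libraries. The tissue was a whole seedling, so more RNA per cell and more cells of a type that expresses these genes cannot be told apart.

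**Figure D1:**
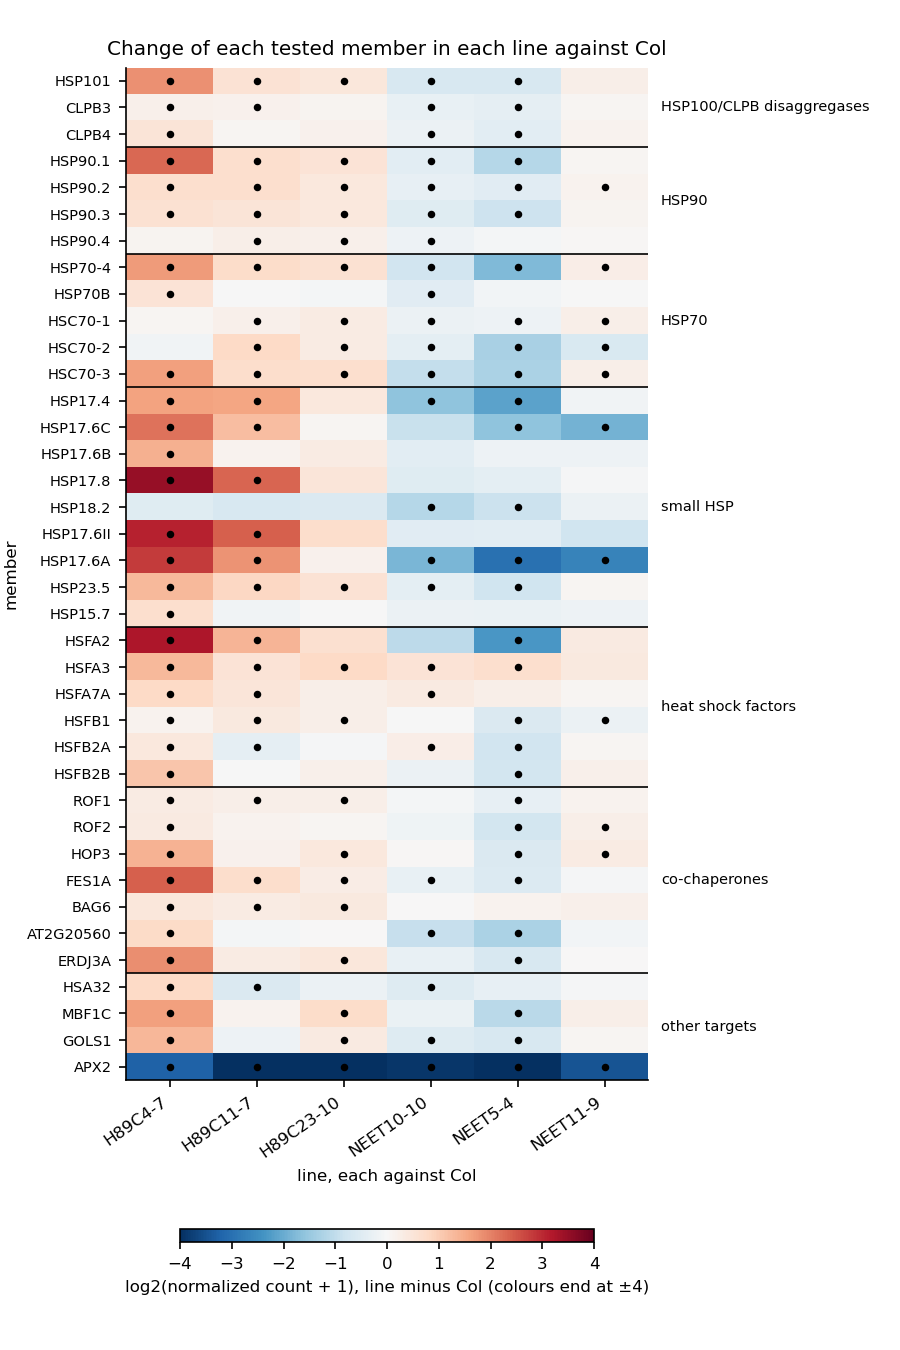
Heat map of the log2 change of each of the 38 tested members (vertical axis, grouped by class) in each line against Col (horizontal axis), on the log2(normalized count + 1) scale; a black dot marks a limma adjusted p under 0.05. The H89C4-7 column holds 33 members called higher and the NEET5-4 column 28 called lower. Without HSP17.4, HSP17.6II and APX2, which passed the filter through 1 construct or Col alone, these counts are 31 and 26. APX2 in the bottom line is lower in all 6 lines, which its passing through Col alone fixed beforehand.

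H89C4-7 had the highest mean for 32 of the 38 members, beside 32.5% of all tested genes, and NEET5-4 the lowest for 25 of 38, beside 15.0% of all tested genes. No NEET line had the highest mean of any tested member. The members that peaked elsewhere were HSP90.4, HSC70-2 and HSFB1, highest in H89C11-7, HSC70-1, highest in H89C23-10, and HSP18.2 and APX2, highest in Col.

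**Figure D2:**
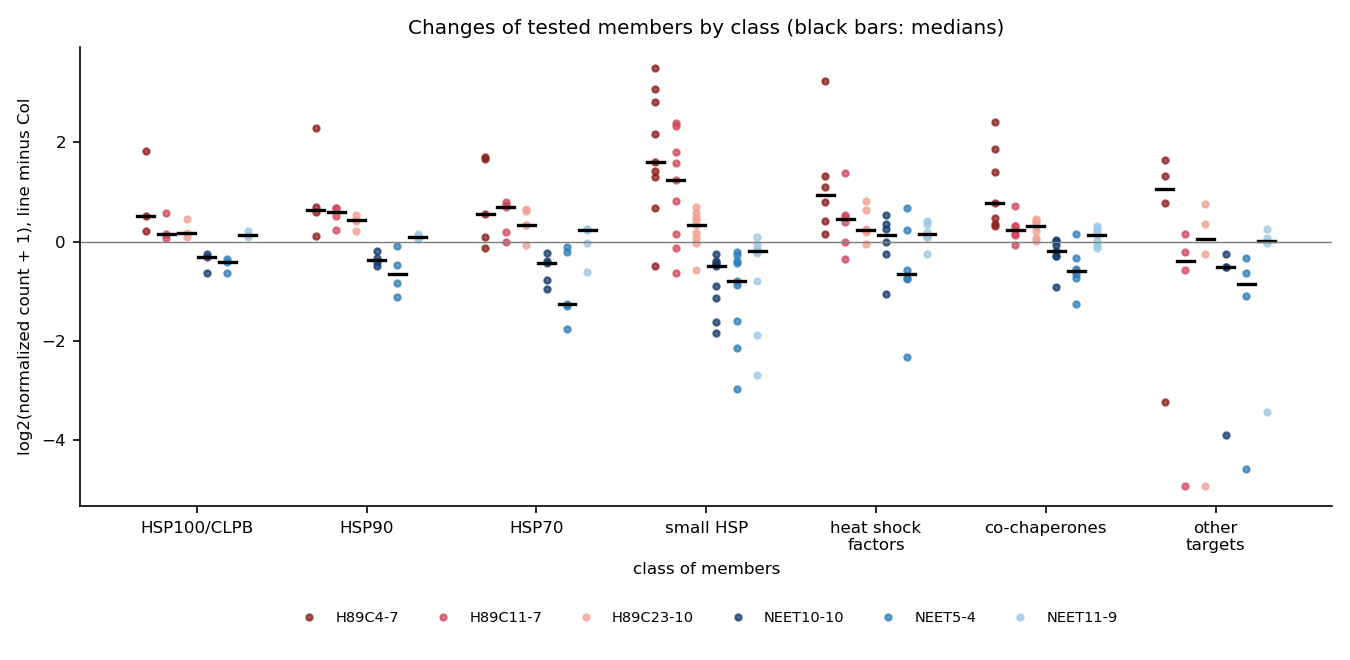
Log2 change against Col (vertical axis, log2(normalized count + 1) scale) of every tested member, by class (horizontal axis) and line (colour), with a black bar at each median. The small HSPs have a median of 1.59 in H89C4-7 and -0.80 in NEET5-4.

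HSP101 (AT1G74310), the cytosolic disaggregase that seedlings need to survive severe heat, rose in each of the 3 H89C lines and fell in NEET10-10 and NEET5-4. HSP101 had 1327, 1198 and 1227 normalized counts in the H89C4-7 libraries, 512, 519 and 544 in H89C11-7 and 482, 474 and 483 in H89C23-10. HSP101 values in the NEET lines were 219, 249 and 216 in NEET10-10, 229, 215 and 237 in NEET5-4 and 366, 435 and 435 in NEET11-9, against 384, 359.9 and 316 in Col. The H89C4-7 libraries held the highest values of all 7 groups, and no H89C library overlapped with a NEET or Col library. The change was largest in H89C4-7 (log2 change 1.82 ± 0.08 SE, adjusted p = 2.8e-16 by limma), where it came to 3.54-fold. It was smaller in H89C11-7 (log2 change 0.57 ± 0.08 SE, adjusted p = 3.3e-06) and H89C23-10 (log2 change 0.44 ± 0.08 SE, adjusted p = 2.0e-04). In NEET10-10 and NEET5-4 HSP101 fell by about the same amount (log2 changes -0.63 and -0.63, limma adjusted p = 1.3e-06 and 5.8e-07). Its organellar relatives changed by less in H89C4-7 and NEET5-4. CLPB3 (AT5G15450), the plastid form, averaged 2592 ± 78.7 normalized counts in H89C4-7 and 1763 ± 35.7 in NEET5-4, against 2246 ± 155 in Col (SD, n = 3 each). Its log2 changes were 0.21 ± 0.05 SE in H89C4-7 and -0.35 ± 0.05 SE in NEET5-4 (limma adjusted p = 7.6e-04 and 4.8e-06). Under quantile normalization CLPB3 was no longer called in H89C4-7 (log2 change 0.03). CLPB4 (AT2G25140), the mitochondrial form, averaged 807 ± 13.6 in H89C4-7 and 426 ± 15.5 in NEET5-4, against 569 ± 29.0 in Col (SD, n = 3 each), with log2 changes of 0.51 and -0.42 (limma adjusted p = 1.6e-07 and 1.1e-05).

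Among the 4 cytosolic HSP90s, HSP90.1 (AT5G52640), the heat-inducible member of the family, changed most. HSP90.1 had 3858, 3824 and 3929 normalized counts in the H89C4-7 libraries, 1207, 1345 and 1284 in H89C11-7 and 1160.3, 1133 and 1172 in H89C23-10. HSP90.1 values in the NEET lines were 669, 564 and 563 in NEET10-10, 377, 354 and 361 in NEET5-4 and 813, 831 and 856 in NEET11-9, against 753, 776 and 861 in Col. All H89C libraries were above all Col libraries, those of NEET10-10 and NEET5-4 were below them, and NEET11-9 overlapped with Col. HSP90.1 rose in H89C4-7 (log2 change 2.28 ± 0.062 SE, adjusted p = 2.4e-20 by limma), a 4.86-fold change. It also rose in H89C11-7 (log2 change 0.68 ± 0.062 SE, adjusted p = 4.7e-09) and H89C23-10 (log2 change 0.54 ± 0.062 SE, adjusted p = 5.1e-07), and it fell in NEET5-4 (log2 change -1.13 ± 0.062 SE, adjusted p = 1.5e-13) and NEET10-10 (log2 change -0.41 ± 0.062 SE, adjusted p = 1.5e-05). HSP90.2 (AT5G56030) and HSP90.3 (AT5G56010), members expressed at all times, were raised to a like extent in H89C4-7 and H89C11-7. HSP90.2 averaged 5010.4 ± 80.1 and 4955 ± 74.98 normalized counts there and 2257 ± 104 in NEET5-4, against 3117 ± 173 in Col (SD, n = 3 each), with log2 changes of 0.69, 0.67 and -0.47 (limma adjusted p = 8.7e-13, 1.8e-11 and 5.5e-09). HSP90.3 averaged 5352 ± 169.6 and 5050.1 ± 131 in these H89C lines and 1989 ± 128 in NEET5-4, against 3533 ± 261 in Col (SD, n = 3 each), with log2 changes of 0.60, 0.52 and -0.83 (limma adjusted p = 5.4e-09, 4.0e-07 and 5.9e-11). HSP90.4 (AT5G56000) changed less in these lines, at 567 ± 34.9 in H89C4-7 and 495 ± 14.5 in NEET5-4, against 528 ± 16.5 in Col (SD, n = 3 each). Its log2 changes were 0.10 and -0.09 in H89C4-7 and NEET5-4, neither of them called (limma adjusted p = 0.17 and 0.3). HSP90.4 was called higher in H89C11-7 and H89C23-10 and lower in NEET10-10. These calls held under 17, 12 and 14 of 17 alternatives. Of the 50-base windows of the exons of HSP90.2, HSP90.3 and HSP90.4, 18.9%, 24.8% and 19.5% occur again elsewhere in the nuclear genome. The coding sequences of HSP90.3 and HSP90.4 are 95.4% identical. How reads that map to several genes were counted is not given in the sources used here, so the split among these 3 genes is uncertain.

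Among the cytosolic HSP70s, HSP70-4 (AT3G12580), a heat-inducible member, ran in opposite directions in H89C4-7 and NEET5-4. HSP70-4 had 7216, 7009.7 and 7249 normalized counts in the H89C4-7 libraries, 3708, 3649 and 3589 in H89C11-7 and 3261, 3495 and 3308 in H89C23-10. HSP70-4 values in the NEET lines were 1224, 1291 and 1331 in NEET10-10, 658, 656 and 633 in NEET5-4 and 2603, 2583 and 2675 in NEET11-9, against 1888, 2406 and 2331 in Col. The values of the 7 groups fell in an order with H89C4-7 at the top and NEET5-4 at the bottom, with no overlap between any of the H89C libraries and any of the others. HSP70-4 rose in H89C4-7 (log2 change 1.70 ± 0.061 SE, adjusted p = 4.8e-18 by limma), in H89C11-7 (log2 change 0.73 ± 0.061 SE, adjusted p = 9.9e-10) and in H89C23-10 (log2 change 0.61 ± 0.061 SE, adjusted p = 4.4e-08). It fell in NEET5-4 (log2 change -1.76 ± 0.061 SE, adjusted p = 1.4e-17), where its level was 3.38-fold lower than in Col, and in NEET10-10 (log2 change -0.78 ± 0.061 SE, adjusted p = 4.1e-10). HSC70-3 (AT3G09440) had 11177, 11319 and 11181 normalized counts in the H89C4-7 libraries, 5639, 5774 and 5835 in H89C11-7 and 5629, 5483 and 5811 in H89C23-10. HSC70-3 values in the NEET lines were 1741, 1864 and 1887 in NEET10-10, 1574, 1449.7 and 1469 in NEET5-4 and 4122, 4186 and 4278 in NEET11-9, against 3427, 3652 and 3614 in Col. HSC70-3, a constitutive member by name, followed the same group order as HSP70-4, except that its lowest libraries in NEET10-10 and its highest in NEET5-4 lay close together. Its log2 changes were 1.66 ± 0.044 SE in H89C4-7, -0.96 ± 0.044 SE in NEET10-10 and -1.25 ± 0.044 SE in NEET5-4 (limma adjusted p = 1.1e-20, 1.3e-14 and 1.6e-17). NEET11-9 went another way: HSP70-4, HSC70-3 and HSC70-1 were called higher there and HSC70-2 lower (class median log2 change 0.24). Of all tested genes, 4.49% were higher and 6.44% lower in that line. The HSP70-4 call in NEET11-9 was lost when NEET11-9 and Col alone were fitted.

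HSC70-2 (AT5G02490) departed from that order. HSC70-2 had 549.9, 599 and 599 normalized counts in the H89C4-7 libraries, 1093, 1079 and 1136 in H89C11-7 and 795, 768 and 849.7 in H89C23-10. HSC70-2 values in the NEET lines were 491, 521 and 449.6 in NEET10-10, 309, 246 and 223 in NEET5-4 and 425, 404 and 414 in NEET11-9, against 649.9, 598 and 662 in Col. Its highest libraries were those of H89C11-7, those of H89C4-7 overlapped with Col or lay below it, and the NEET libraries were all below Col. HSC70-2 rose in H89C11-7 (log2 change 0.79 ± 0.084 SE, adjusted p = 5.2e-08 by limma) and H89C23-10 (log2 change 0.34 ± 0.084 SE, adjusted p = 0.0049), and it fell in NEET5-4 (log2 change -1.30 ± 0.084 SE, adjusted p = 2.9e-12) and NEET11-9 (log2 change -0.62 ± 0.084 SE, adjusted p = 9.0e-06). The log2 change in H89C4-7 was -0.13 ± 0.084 SE (limma adjusted p = 0.18). HSC70-1 (AT5G02500), the main cytosolic HSP70 of unstressed plants, was by far the most abundant of the class per length of transcript, at 18747 normalized counts per kilobase in Col, where HSC70-3 had 1106 and HSP70-4 876. HSC70-1 averaged 60044 ± 2240.2 normalized counts in H89C23-10 and 40608 ± 3070.7 in NEET10-10, against 47899 ± 1541 in Col (SD, n = 3 each), with log2 changes of 0.33 and -0.24 (limma adjusted p = 2.0e-04 and 0.0028). Quantile normalization turned the sign in NEET10-10 (log2 change 0.04), and the call was lost when NEET10-10 and Col alone were fitted (limma adjusted p = 0.13). HSP70B (AT1G16030), another heat-inducible member, averaged 227 ± 23.56 in H89C4-7 and 113 ± 0.732 in NEET10-10, against 154 ± 19.0 in Col (SD, n = 3 each). It rose in H89C4-7 and fell in NEET10-10 (log2 changes 0.56 and -0.44, limma adjusted p = 7.3e-05 and 0.0031); the NEET10-10 call was lost in the same fit (limma adjusted p = 0.058).

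**Figure D3:**
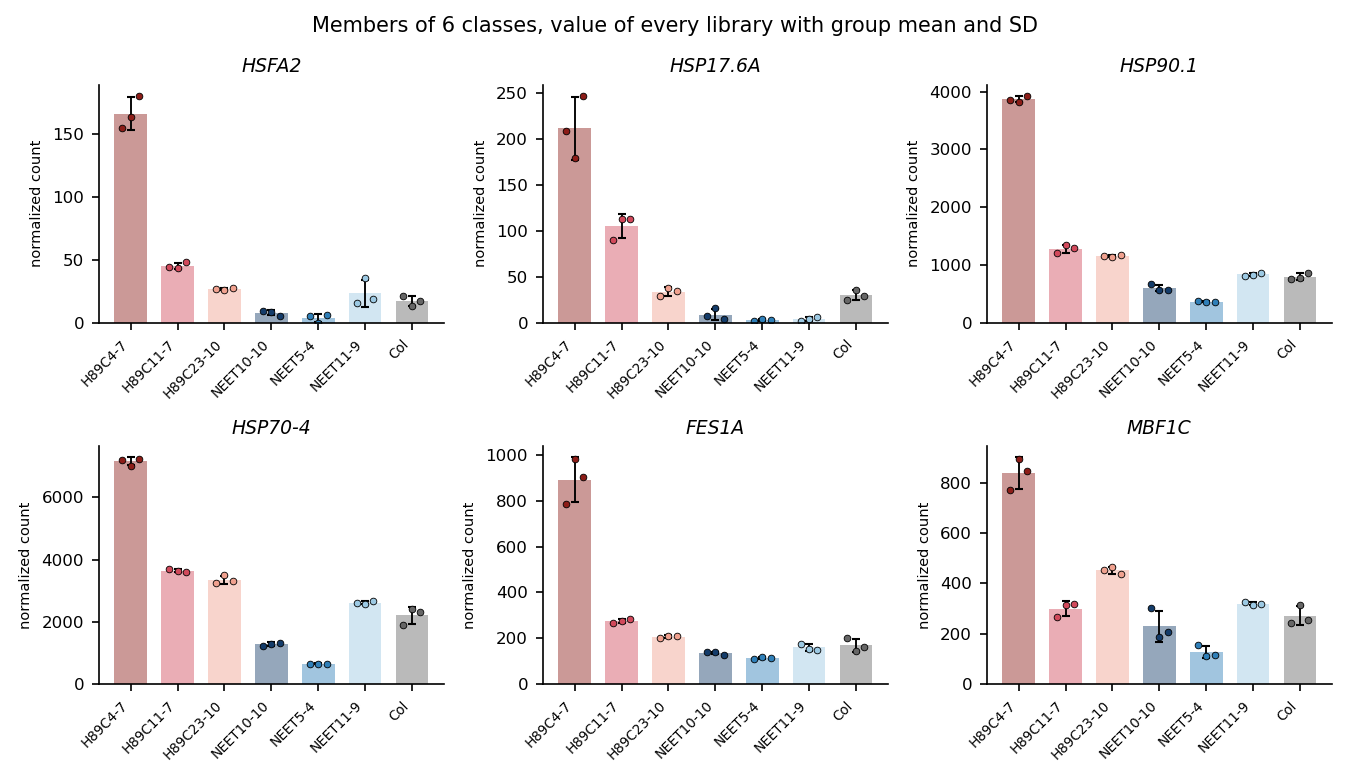
Normalized counts (vertical axis, from 0) of HSFA2, HSP17.6A, HSP90.1, HSP70-4, FES1A and MBF1C in the 7 groups (horizontal axis); points are libraries, bars are group means and error bars are SD (n = 3). In each panel the H89C4-7 libraries are above all other libraries. In the HSP90.1, HSP70-4, FES1A and MBF1C panels the NEET5-4 libraries are below all others.

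Small HSPs, the chaperones with the largest induction in heated plants, were nearly silent or low in Col, and most rose in H89C4-7 and H89C11-7. Of the 9 tested, 8 rose in H89C4-7 (median log2 change 1.59), 6 in H89C11-7 (1.23) and 1 in H89C23-10 (0.33), where the member called was the mitochondrial HSP23.5 (AT5G51440), beside 33.6%, 19.8% and 11.5% of all tested genes. Without HSP17.4 (AT3G46230) and HSP17.6II (AT5G12020), 6 of 7 rose in H89C4-7 (median 1.43) and 4 in H89C11-7 (0.82). HSP17.6A (AT5G12030) had 209, 179 and 247 normalized counts in the H89C4-7 libraries, 89.6, 113 and 113 in H89C11-7 and 28.6, 37.9 and 34.2 in H89C23-10. HSP17.6A values in the NEET lines were 7.15, 15.5 and 3.58 in NEET10-10, 1.84, 4.14 and 2.96 in NEET5-4 and 1.72, 4.19 and 6.53 in NEET11-9, against 24.1, 35.3 and 29.4 in Col. HSP17.6A, a class II small HSP of the cytosol, moved in both directions: every H89C4-7 and H89C11-7 library was above Col, every NEET library was below Col, and H89C23-10 overlapped with Col. HSP17.6A rose in H89C4-7 (log2 change 2.80 ± 0.362 SE, adjusted p = 2.3e-07 by limma), 6.96-fold, and in H89C11-7 (log2 change 1.80 ± 0.362 SE, adjusted p = 3.2e-04). It fell in NEET5-4 (log2 change -2.97 ± 0.362 SE, adjusted p = 3.2e-07), NEET11-9 (log2 change -2.68 ± 0.362 SE, adjusted p = 8.1e-06) and NEET10-10 (log2 change -1.83 ± 0.362 SE, adjusted p = 3.8e-04). HSP17.8 (AT1G07400) had 163, 189.8 and 184 normalized counts in the H89C4-7 libraries, 68.5, 83.1 and 87.5 in H89C11-7 and 21.9, 13.2 and 33.3 in H89C23-10. HSP17.8 values in the NEET lines were 6.12, 18.1 and 9.83 in NEET10-10, 7.37, 18.6 and 9.88 in NEET5-4 and 17.2, 10.9 and 15.5 in NEET11-9, against 11.6, 12.9 and 22.1 in Col. HSP17.8, a class I member, was high in the libraries of H89C4-7 and H89C11-7, while the NEET and Col libraries overlapped. It had the largest rise of all members in H89C4-7 (log2 change 3.50 ± 0.347 SE, adjusted p = 2.5e-09 by limma), 11.3-fold, and it rose in H89C11-7 (log2 change 2.33 ± 0.347 SE, adjusted p = 8.1e-06). In H89C23-10 its log2 change was 0.49 ± 0.347 SE (limma adjusted p = 0.34).

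HSP17.6C (AT1G53540) had 71.3, 53.5 and 71.2 normalized counts in the H89C4-7 libraries, 41.1, 41.0 and 22.4 in H89C11-7 and 20.2, 12.3 and 12.0 in H89C23-10. HSP17.6C values in the NEET lines were 7.15, 8.603 and 5.36 in NEET10-10, 1.84, 9.31 and 2.96 in NEET5-4 and 4.29, 2.51 and 2.45 in NEET11-9, against 17.9, 19.3 and 7.35 in Col. HSP17.6C, also of class I, was above every Col library in all libraries of H89C4-7 and H89C11-7 and below every Col library in NEET11-9. It rose in H89C4-7 (log2 change 2.16 ± 0.411 SE, adjusted p = 5.7e-05 by limma) and H89C11-7 (log2 change 1.23 ± 0.411 SE, adjusted p = 0.02), and it fell in NEET5-4 (log2 change -1.59 ± 0.411 SE, adjusted p = 0.0038) and NEET11-9 (log2 change -1.88 ± 0.411 SE, adjusted p = 0.0031). When NEET5-4 and Col alone were fitted, the call in NEET5-4 was lost (limma adjusted p = 0.062). The HSP17.6C call in H89C11-7 was lost without Col replicate 3 (0.82), without H89C11-7 replicate 1 (1.09) and without H89C11-7 replicate 2 (1.09), with limma adjusted p from 0.079 to 0.14. HSP17.6II, the other class II gene, had 14.5, 24.2 and 13.3 normalized counts in H89C4-7, 8.43, 12.0 and 10.2 in H89C11-7 and 5.06, 0.881 and 2.56 in H89C23-10. Its NEET libraries had at most 1.03, against 3.58, 1.07 and 0 in Col. The gene was thus read at a few counts or none outside H89C4-7 and H89C11-7, where its log2 changes were 3.07 ± 0.6 SE and 2.39 ± 0.6 SE. It passed the filter through those lines alone, so no test is given. HSP17.4, another class I gene, had 23.0, 9.09 and 8.90 in H89C4-7 and 17.9, 16.0 and 6.10 in H89C11-7, against 1.79, 4.28 and 4.90 in Col. It was at 0 in all 3 NEET5-4 libraries. The Col mean was 3.73-fold above a floor of 3 reads over the group. As the Col values are themselves a few reads each, this ratio is no firm lower limit of the difference. The log2 change of HSP17.4 in H89C4-7 was 1.59 ± 0.555 SE, again with no test.

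HSP17.6B (AT2G29500), a class I member, averaged 202 ± 28.6 normalized counts in H89C4-7, against 74.1 ± 4.71 in Col (SD, n = 3 each), and rose in that line (log2 change 1.43 ± 0.171 SE, adjusted p = 6.5e-08 by limma). Its log2 changes in the other 5 lines ran from -0.44 to 0.33, none of them called. HSP18.2 (AT5G59720), of the same class, went another way and had its highest mean in Col. It averaged 36.9 ± 5.01 in H89C4-7 and 23.3 ± 4.90 in NEET10-10, against 54.1 ± 21.1 in Col (SD, n = 3 each), and its libraries in H89C4-7 and Col overlapped. HSP18.2 fell in NEET10-10 (log2 change -1.14 ± 0.264 SE, adjusted p = 0.0018 by limma), and its log2 change in H89C4-7 was -0.49 (limma adjusted p = 0.11). Outside the cytosol, the mitochondrial HSP23.5 rose in every H89C line. It averaged 287 ± 4.75 in H89C4-7, 206 ± 29.0 in H89C11-7, 172 ± 9.19 in H89C23-10 and 66.6 ± 9.39 in NEET5-4, against 116 ± 9.13 in Col (SD, n = 3 each). The log2 changes were 1.30, 0.82, 0.57 and -0.80 (limma adjusted p = 1.1e-09, 1.0e-05, 0.0015 and 1.3e-05). HSP15.7 (AT5G37670), the peroxisomal small HSP, averaged 39.3 ± 4.17 in H89C4-7, against 24.4 ± 4.37 in Col (SD, n = 3 each), and rose there (log2 change 0.67 ± 0.219 SE, adjusted p = 0.009 by limma). The untested organellar small HSPs were read at few counts. The plastid HSP21 (AT4G27670) had 0, 1.01 and 4.45 normalized counts in H89C4-7 and 0 in all Col libraries, and it was at 0 in all but 3 of the 21 libraries. HSP23.6 (AT4G25200) of mitochondria had 7.25, 6.06 and 5.56 in H89C4-7, against 1.79, 2.14 and 0 in Col, and HSP26.5 (AT1G52560) of mitochondria 13.3, 7.07 and 7.79, against 4.47, 6.43 and 4.90. HSP22.0 (AT4G10250) of the ER had at most 3.63 in any library, so a change in it was not detectable at this depth.

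Cytosolic small HSPs are also made in maturing seeds, and RNA of seed and embryo genes was read in these libraries too. The 15 seed and embryo markers, storage proteins, oleosins and late embryo proteins, summed to 741 to 1298 normalized counts per library in H89C4-7, 328 to 738 in H89C11-7 and 525 to 712 in H89C23-10. They summed to 509 to 576 in NEET10-10, 678 to 759 in NEET5-4 and 754 to 972 in NEET11-9, against 409 to 616 in Col. Of the 12 tested, 7 rose and 2 fell in H89C4-7, 6 rose and 4 fell in H89C11-7, and 5 rose in H89C23-10 (limma), beside 33.6% and 33%, 19.8% and 17.9%, and 11.5% higher of all tested genes; without H89C23-10 replicate 3 the count in H89C23-10 was 2. SESA1, a storage albumin, had 48.3, 30.3 and 77.9 in H89C4-7 and 0 in all NEET and Col libraries. It was picked after its values were seen and passed the filter through H89C libraries alone, so it had to differ. SESA1 is among the 12 tested, and whether other markers passed in this way was not examined. The mean sum was highest in H89C4-7, whose libraries overlapped in it with those of NEET5-4 and NEET11-9. Markers at 0 in all 3 libraries of a group numbered 0 in H89C4-7 and in H89C11-7, 1 in H89C23-10, 5 in NEET10-10, 3 in NEET5-4 and 5 in NEET11-9, against 3 in Col. Their part in the small HSP results was not tested. Root markers (5 genes) summed to 98570 normalized counts per library on average in H89C4-7 and 82230 in NEET5-4, against 84390 in Col, and shoot markers (5 genes) to 257400 and 264100, against 307400 in Col. The highest mean root sum was 115400 in H89C23-10 and the lowest 72280 in NEET10-10. NEET10-10 also had the lowest mean shoot sum, 207200, and Col the highest. By gene, of the root markers 2 rose and 3 fell in H89C4-7 (median log2 change -0.85) and 0 rose and 3 fell in H89C11-7 (-0.68), and of the shoot markers 0 rose and 3 fell in H89C4-7 (-0.56). Their part in the heat shock results was not tested.

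Among the HSFs, HSFA2 (AT2G26150), the heat-inducible activator that keeps small HSP genes on, had the widest range of log2 changes. HSFA2 had 155, 164 and 180.2 normalized counts in the H89C4-7 libraries, 44.3, 43.1 and 47.8 in H89C11-7 and 27.0, 25.5 and 27.3 in H89C23-10. HSFA2 values in the NEET lines were 9.19, 8.603 and 5.36 in NEET10-10, 5.53, 0 and 5.93 in NEET5-4 and 15.4, 35.2 and 18.8 in NEET11-9, against 21.5, 12.9 and 17.2 in Col. All H89C libraries were above all Col libraries, and in NEET10-10 and NEET5-4 all libraries were below Col, while NEET11-9 overlapped with Col. HSFA2 rose in H89C4-7 (log2 change 3.23 ± 0.454 SE, adjusted p = 8.6e-07 by limma), 9.37-fold, and in H89C11-7 (log2 change 1.37 ± 0.454 SE, adjusted p = 0.019), and it fell in NEET5-4 (log2 change -2.32 ± 0.454 SE, adjusted p = 2.5e-04). The H89C11-7 call was lost without Col replicate 2 (1.19) and without H89C11-7 replicate 3 (1.33), with limma adjusted p from 0.056 to 0.07. In H89C23-10 its log2 change was 0.63 (limma adjusted p = 0.34) and in NEET10-10 -1.06 (limma adjusted p = 0.08). HSFA3 (AT5G03720) had 236, 227 and 205 normalized counts in the H89C4-7 libraries, 116, 153 and 123.1 in H89C11-7 and 159, 157 and 154 in H89C23-10. HSFA3 values in the NEET lines were 155, 124 and 113 in NEET10-10, 147, 138 and 145 in NEET5-4 and 112, 126 and 117 in NEET11-9, against 70.6, 102 and 98.1 in Col. HSFA3, an activator that DREB2 factors switch on, had its lowest group mean in Col, as did HSFA7A and BAG6 among the tested members. The HSFA3 libraries of all 6 lines were above all Col libraries. HSFA3 rose in H89C4-7 (log2 change 1.31 ± 0.134 SE, adjusted p = 4.3e-09 by limma), H89C23-10 (log2 change 0.81 ± 0.134 SE, adjusted p = 7.9e-05), NEET5-4 (log2 change 0.68 ± 0.134 SE, adjusted p = 2.6e-04), H89C11-7 (log2 change 0.54 ± 0.134 SE, adjusted p = 0.0025) and NEET10-10 (log2 change 0.54 ± 0.134 SE, adjusted p = 0.0036). In NEET10-10 the call was lost when both libraries that stand apart were left out (log2 change 0.24, limma adjusted p = 0.19) and when NEET10-10 and Col alone were fitted (limma adjusted p = 0.086). Its log2 change in NEET11-9 was 0.40 (limma adjusted p = 0.053).

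HSFA7A (AT3G51910), a class A factor, averaged 811 ± 55.4 normalized counts in H89C4-7 and 661 ± 43.3 in H89C11-7, against 469 ± 60.9 in Col (SD, n = 3 each), and rose in both (log2 changes 0.79 and 0.50, limma adjusted p = 5.0e-08 and 1.5e-04). Its relative HSFA7B (AT3G63350) had at most 3.16 normalized counts in any library and was not tested. The class B factors, most of which act as repressors, did not move as 1 group. HSFB2B (AT4G11660) averaged 317 ± 18.7 in H89C4-7 and 89.5 ± 18.9 in NEET5-4, against 148 ± 6.93 in Col (SD, n = 3 each), with log2 changes of 1.09 and -0.74 (limma adjusted p = 1.3e-07 and 1.3e-04). HSFB2A (AT5G62020) rose in H89C4-7 (log2 change 0.41, limma adjusted p = 1.3e-04) and fell in H89C11-7 (-0.35, limma adjusted p = 0.0021) and NEET5-4 (-0.76, limma adjusted p = 7.5e-08). It averaged 411 ± 21.9 in H89C4-7, 242 ± 6.01 in H89C11-7 and 182 ± 13.6 in NEET5-4, against 308 ± 16.3 in Col (SD, n = 3 each). In NEET10-10 the members called higher were all HSFs, namely HSFA3, HSFA7A and HSFB2A. Of the 6 tested HSFs 3 were higher and 0 lower there (median log2 change 0.13), beside 15.6% and 14.7% of all tested genes. These calls were lost when NEET10-10 and Col alone were fitted. HSFB1 (AT4G36990) peaked in H89C11-7, at 1699 ± 95.96, with 867 ± 44.7 in NEET5-4, against 1298 ± 51.9 in Col (SD, n = 3 each). It rose in H89C11-7 (log2 change 0.39 ± 0.053 SE, adjusted p = 2.6e-06 by limma) and fell in NEET5-4 (log2 change -0.58 ± 0.053 SE, adjusted p = 2.2e-09). In H89C4-7 its log2 change was 0.14 (limma adjusted p = 0.019), which turned to -0.01 under quantile normalization and was no longer called without Col replicate 1 (0.12), without Col replicate 2 (0.14) and without H89C4-7 replicate 3 (0.13), with limma adjusted p from 0.05 to 0.061.

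**Figure D4:**
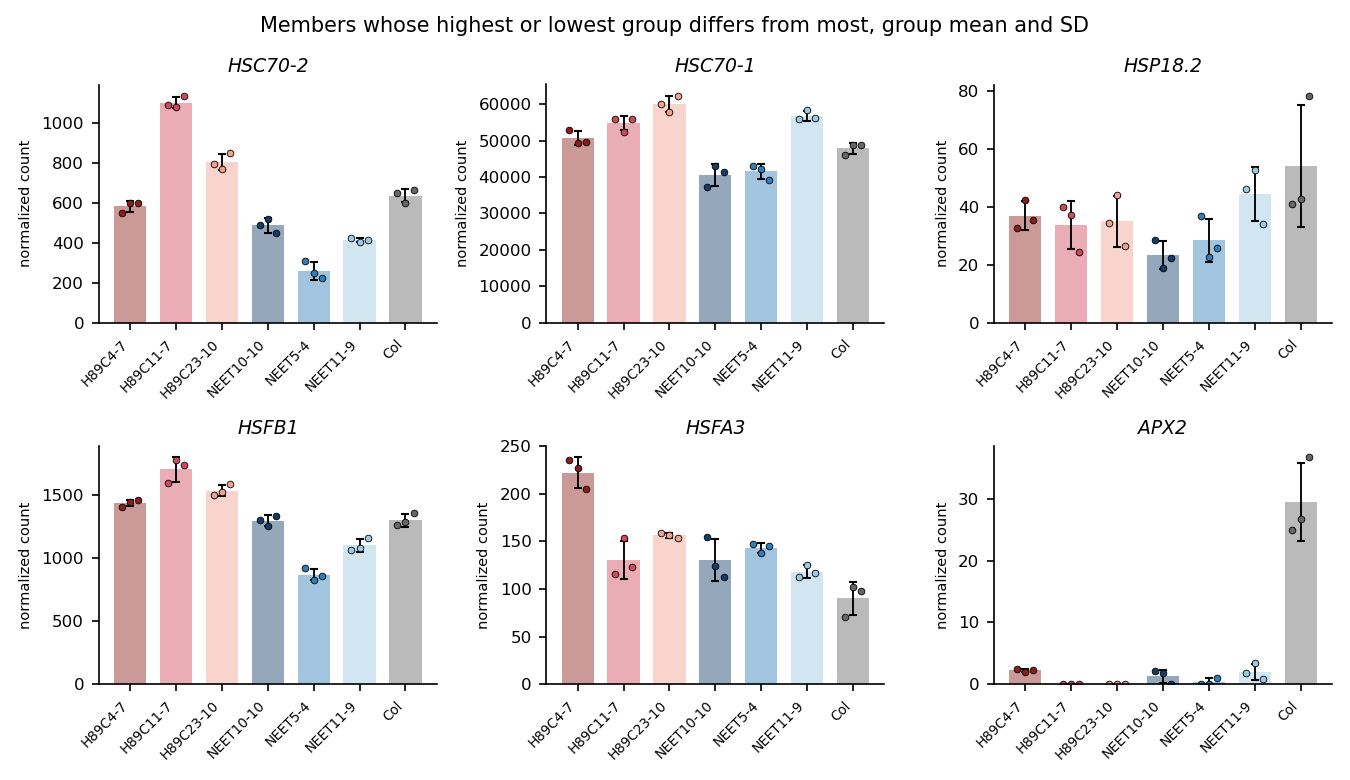
Normalized counts (vertical axis, from 0) of HSC70-2, HSC70-1, HSP18.2, HSFB1, HSFA3 and APX2 in the 7 groups (horizontal axis); points are libraries, bars are group means and error bars are SD (n = 3). HSC70-2 and HSFB1 peak in H89C11-7 and HSC70-1 in H89C23-10, Col is lowest for HSFA3, and all Col libraries of APX2 are above all others.

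Co-chaperones set the activity of HSP70 and HSP90, and all 7 of the 7 members rose in H89C4-7 (median log2 change 0.78), with 3 in H89C11-7 and 5 in H89C23-10. In NEET5-4 6 of 7 fell and in NEET10-10 2 of 7. Of all tested genes, 33.6%, 19.8% and 11.5% rose in the H89C lines, and 16.9% and 14.7% fell in NEET5-4 and NEET10-10. Small counts rested on single libraries: that in H89C23-10 was 3 without Col replicate 2, without Col replicate 3 or without H89C23-10 replicate 2, and 2 without H89C23-10 replicate 3, while that in NEET10-10 was 1 without NEET10-10 replicate 3. FES1A (AT3G09350), which protects HSP70 from degradation in heated plants, rose most. FES1A had 788, 982 and 904 normalized counts in the H89C4-7 libraries, 268, 273 and 283 in H89C11-7 and 199, 208 and 212 in H89C23-10. FES1A values in the NEET lines were 139, 139 and 129 in NEET10-10, 108, 119 and 116 in NEET5-4 and 177, 153 and 150.1 in NEET11-9, against 199, 144 and 162 in Col. The libraries of H89C4-7 were far above all others, those of H89C11-7 were above Col, and those of H89C23-10 overlapped with Col or lay just above it. FES1A rose in H89C4-7 (log2 change 2.41 ± 0.104 SE, adjusted p = 2.2e-16 by limma), 5.30-fold, and in H89C11-7 (log2 change 0.72 ± 0.104 SE, adjusted p = 5.8e-06), and it fell in NEET5-4 (log2 change -0.54 ± 0.104 SE, adjusted p = 1.9e-04). ERDJ3A (AT3G08970) had 259, 262 and 265 normalized counts in the H89C4-7 libraries, 74.8, 90.11 and 105 in H89C11-7 and 91.0, 104 and 101 in H89C23-10. ERDJ3A values in the NEET lines were 69.4, 51.6 and 55.4 in NEET10-10, 47.9, 42.4 and 44.5 in NEET5-4 and 72.1, 77.0 and 66.1 in NEET11-9, against 86.7, 65.3 and 63.7 in Col. ERDJ3A, a J-domain partner of HSP70 in the ER, was high in H89C4-7 alone, with the other H89C libraries only slightly above or among those of Col and NEET5-4 below Col. It rose in H89C4-7 (log2 change 1.86 ± 0.145 SE, adjusted p = 2.9e-11 by limma) and fell in NEET5-4 (log2 change -0.66 ± 0.145 SE, adjusted p = 9.8e-04).

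HOP3 (AT4G12400), which links HSP70 to HSP90, averaged 1141 ± 49.5 normalized counts in H89C4-7, 573 ± 32.2 in H89C23-10 and 286 ± 11.9 in NEET5-4, against 433 ± 48.8 in Col (SD, n = 3 each). It rose in the H89C lines named (log2 changes 1.40 and 0.41, limma adjusted p = 1.7e-14 and 2.6e-04) and fell in NEET5-4 (-0.59, limma adjusted p = 6.0e-07). AT2G20560, a DNAJ-type protein with a J-domain, averaged 374 ± 6.11 in H89C4-7, 115 ± 1.88 in NEET10-10 and 91.1 ± 6.95 in NEET5-4, against 218 ± 8.94 in Col (SD, n = 3 each). Its log2 changes in these lines were 0.78, -0.92 and -1.25 (limma adjusted p = 6.8e-08, 3.6e-08 and 4.8e-11). The immunophilins ROF1 (AT3G25230) and ROF2 (AT5G48570), which bind HSP90, rose in H89C4-7 and fell in NEET5-4. ROF1 averaged 2862 ± 49.7 in H89C4-7 and 1836 ± 111 in NEET5-4, against 2308 ± 271 in Col, and ROF2 386 ± 11.7 and 181 ± 10.2, against 301 ± 12.5 (SD, n = 3 each). Log2 changes in H89C4-7 were 0.32 for ROF1 and 0.36 for ROF2 (limma adjusted p = 1.4e-04 and 3.1e-04), and in NEET5-4 -0.33 and -0.73 (limma adjusted p = 3.3e-04 and 5.0e-08). Under quantile normalization ROF1 was no longer called in H89C4-7 (log2 change 0.13). BAG6 (AT2G46240), a BAG-domain protein of stressed plants, rose in H89C4-7, H89C11-7 and H89C23-10 (log2 changes 0.47, 0.32 and 0.39, limma adjusted p = 2.5e-05, 0.0038 and 0.0012). It averaged 392 ± 20.6, 353 ± 24.5 and 372 ± 29.5 there, against 283 ± 19.3 in Col (SD, n = 3 each), and it was not called in any NEET line.

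The 4 other targets parted ways. MBF1C (AT3G24500) had 769.9, 895 and 847 normalized counts in the H89C4-7 libraries, 267, 313 and 319 in H89C11-7 and 453, 466 and 438 in H89C23-10. MBF1C values in the NEET lines were 300.1, 185 and 206 in NEET10-10, 154, 112 and 117 in NEET5-4 and 326, 312 and 318 in NEET11-9, against 243, 314 and 255 in Col. MBF1C, a transcriptional co-activator needed for heat tolerance, was high in H89C4-7 and H89C23-10, low in NEET5-4, and overlapped with Col in H89C11-7 and NEET10-10. It rose in H89C4-7 (log2 change 1.63 ± 0.134 SE, adjusted p = 7.9e-11 by limma) and H89C23-10 (log2 change 0.75 ± 0.134 SE, adjusted p = 2.0e-04), and it fell in NEET5-4 (log2 change -1.09 ± 0.134 SE, adjusted p = 4.1e-07). GOLS1 (AT2G47180), which makes galactinol for raffinose synthesis, averaged 1218 ± 15.4 normalized counts in H89C4-7 and 315 ± 19.6 in NEET5-4, against 489.5 ± 61.7 in Col (SD, n = 3 each). Its log2 changes in these lines were 1.32 and -0.63 (limma adjusted p = 3.8e-12 and 6.1e-06). HSA32 (AT4G21320), a protein that prolongs acquired heat tolerance, rose in H89C4-7 and fell in H89C11-7. It averaged 218 ± 29.9 in H89C4-7 and 84.4 ± 9.07 in H89C11-7, against 126 ± 17.1 in Col (SD, n = 3 each), with log2 changes of 0.78 and -0.57 (limma adjusted p = 1.2e-05 and 0.0012).

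APX2 (AT3G09640), a cytosolic ascorbate peroxidase that removes hydrogen peroxide and is switched on by heat and intense light, was lower in every line than in Col. It had 2.42, 2.02 and 2.22 normalized counts in H89C4-7, 2.04, 1.72 and 0 in NEET10-10, 0, 0 and 0.988 in NEET5-4 and 1.72, 3.35 and 0.816 in NEET11-9. No read was counted in any library of H89C11-7 or H89C23-10, against 25.0, 26.8 and 36.8 in Col. No library of any line overlapped with Col. With a floor of 3 reads over the group, APX2 was at least 28.8-fold lower in H89C11-7 and at least 34.4-fold lower in H89C23-10. In H89C4-7 the log2 change was -3.23 ± 0.577 SE, and in NEET10-10, NEET5-4 and NEET11-9 it was -3.90, -4.58 and -3.44. It passed the filter through Col alone, so its lower values in the lines were fixed by that choice and no test is given. All 6 comparisons rest on the same 3 Col libraries, and the counts behind the Col values are few.

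By compartment, 28 of the 33 tested cytosolic and nuclear members rose in H89C4-7 and 24 of 33 fell in NEET5-4. The organelles together had 5 tested members, of which 5 rose in H89C4-7 (median 0.67) and 4 fell in NEET5-4 (median -0.42). Of all tested genes, 33.6% rose in H89C4-7 and 16.9% fell in NEET5-4. Calls covered the cytosol, plastids, mitochondria, the ER and, in H89C4-7, peroxisomes. With 1 or 2 tested members in each organelle, no comparison between compartments was made.

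To compare the constructs, the mean of the 3 H89C lines and that of the 3 NEET lines were each set against Col. The error in these 2 comparisons is the spread between libraries and leaves out the spread between lines. The H89C mean had 32 members higher and 2 lower (median log2 change 0.51), beside 26% and 23.8% of all tested genes. The NEET mean had 2 higher and 22 lower (median -0.31), beside 12.3% and 13.3%. Without HSP17.4, HSP17.6II and APX2 the H89C mean had 30 higher and 1 lower (median 0.51). The NEET mean without them had 2 higher and 20 lower (median -0.29). Without the line NEET5-4 the lower count of the NEET mean was 11, beside 1906 of all 20699 tested genes. Against each other, with each line as 1 value, the H89C lines were above the NEET lines by a median log2 of 0.83 over the 38 members. No member passed the adjusted threshold in this limma test of 3 lines against 3, nor did any other gene (0% higher and 0% lower of 20699, smallest adjusted p 0.187). At an unadjusted p under 0.05 there were 23 of the 38 members, all higher in H89C, beside 2350 of 20699 genes (11.4%). Every H89C library was above every NEET library for 14 members, beside 2.79% of all tested genes, and none was below, beside 2.13%. Without the line NEET11-9, 24 members had this order, beside 6.16% of all tested genes. These 14 were HSP101, HSP90.1, HSP90.2, HSP90.3, HSP70-4, HSC70-2, HSC70-3, HSP17.6C, HSP17.6B, HSP17.6A, HSP23.5, HSFB1, ROF1 and FES1A. They include members of every class other than the 4 other targets.

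The 2 lines at the ends of the order were also compared directly, without Col. H89C4-7 had the highest mean for 32 of the 38 members and NEET5-4 the lowest for 25. The count of members that differ between them therefore largely restates that order and is no separate support. H89C4-7 was higher than NEET5-4 for 37 of the 38 members and lower for 0 (median log2 difference 1.53), beside 34.5% and 32.8% of all tested genes. Without HSP17.4, HSP17.6II and APX2, which passed the filter through 1 construct or Col alone, 34 of 35 were higher and 0 lower (median 1.43). The APX2 call rested on counts near the floor and was lost under 12 of its 16 alternatives. The member not called was HSP18.2 (log2 difference 0.39, limma adjusted p = 0.2). By limma the gap was widest for HSP17.6A (log2 difference 5.77 ± 0.362 SE, adjusted p = 2.8e-13), followed by HSFA2 (log2 difference 5.55 ± 0.454 SE, adjusted p = 5.5e-11). For HSP70-4 it was 3.46 ± 0.061 SE (limma adjusted p = 3.9e-24). The mean level of AtNEET was 16100.2 normalized counts in H89C4-7 and 18191 in NEET5-4. Each construct stands here with 1 line, and the cause of the gap was not tested. Lines of 1 construct differed too. H89C4-7 was higher than H89C11-7 for 25 members and lower for 2 (median 0.79), beside 31.4% and 32.3% of all genes. Without HSP17.4, HSP17.6II and APX2 the counts were 24 and 2 (median 0.81). The members lower in H89C4-7 were HSC70-2 (log2 difference -0.92, limma adjusted p = 6.3e-10) and HSFB1 (-0.24, limma adjusted p = 3.0e-04). NEET5-4 was higher than NEET10-10 for 1 member and lower for 18 (median -0.27), beside 12.4% and 15.8% of all genes. The higher count was 0 without NEET10-10 replicate 2 or 3 or NEET5-4 replicate 1 or 2, and 2 without NEET10-10 replicate 1. The members lower in NEET5-4 include HSP70-4 at a log2 difference of -0.98 ± 0.061 SE and HSC70-2 at -0.92 ± 0.084 SE (limma adjusted p = 1.3e-12 and 2.2e-09).

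Set beside the AtNEET level of each group, HSP70-4 followed different orders in the 2 constructs. Among the H89C lines, AtNEET and HSP70-4 had the same order, with 16100.2 and 7158 normalized counts in H89C4-7, 2380.4 and 3649 in H89C11-7, and 1299 and 3355 in H89C23-10. Among the NEET lines, the highest HSP70-4 mean was in the line with the least AtNEET: 2620.3 in NEET11-9, where AtNEET was at 332. NEET5-4 had 649 with AtNEET at 18191, and NEET10-10 had 1282 with AtNEET at 32837. Other members broke the order of the H89C lines: HSC70-2 and HSFB1 had their highest means in H89C11-7, HSC70-1 had its in H89C23-10, and MBF1C was higher in every library of H89C23-10 than in any of H89C11-7. With 3 lines a construct and groups that fall into separate clusters, no correlation was computed.

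**Figure D5:**
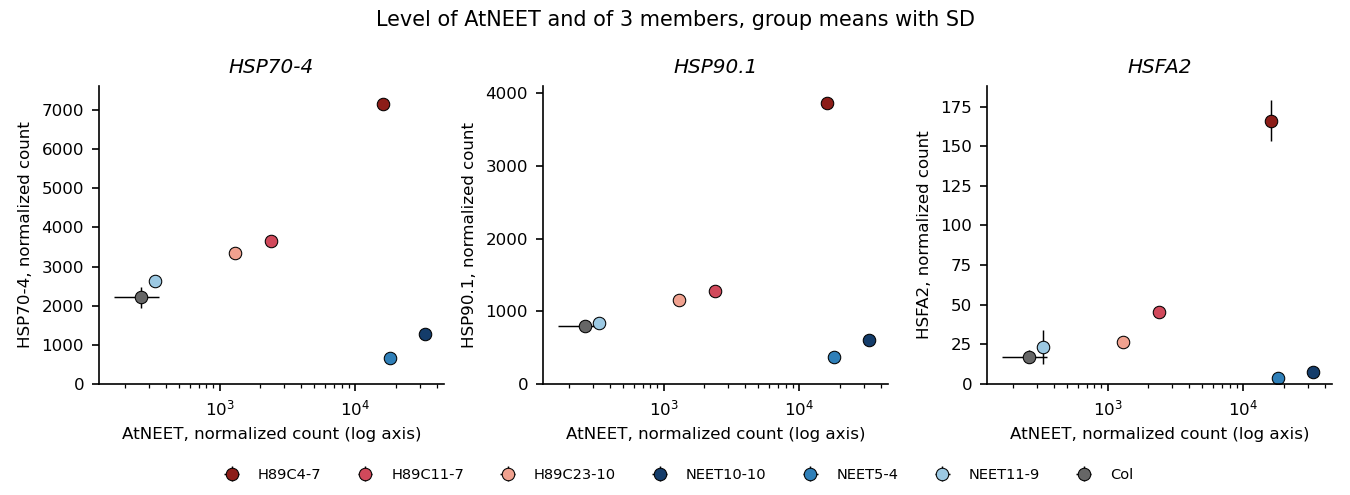
Group means of HSP70-4, HSP90.1 and HSFA2 (vertical axes, normalized counts from 0) against the group mean of AtNEET (horizontal axis, normalized counts on a log axis), with SD over 3 libraries as error bars. H89C4-7 and NEET5-4 lie at similar AtNEET levels and at opposite ends of each vertical axis.

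Genes of the same pathways outside the 43 were read from 6 further lists. Beside the counts of these lists stand those of all tested genes, of which 33.6% and 33% were called higher and lower in H89C4-7, 19.8% and 17.9% in H89C11-7 and 14.1% and 16.9% in NEET5-4. Of the other HSFs, 7 of 12 rose and 2 fell in H89C4-7 (median log2 change 0.35), 3 and 1 in H89C11-7 (0.08), and 4 and 2 in NEET5-4 (-0.10). Leaving out 1 library moved small counts: in H89C4-7 lower calls became 1 without Col replicate 3 or H89C4-7 replicate 3; in H89C11-7 lower calls became 0 without Col replicate 1 or H89C11-7 replicate 2; in NEET5-4 higher calls became 1 without Col replicate 1, Col replicate 3, NEET5-4 replicate 1 or NEET5-4 replicate 3; in NEET5-4 lower calls became 4 without Col replicate 1. HSFA1E and HSFA1A, of the group that starts the response, rose in H89C4-7, to 356 ± 33.4 and 368 ± 2.49 normalized counts, against 100.2 ± 14.8 and 198 ± 25.8 in Col (SD, n = 3 each), with log2 changes of 1.82 and 0.90 (limma adjusted p = 7.5e-13 and 6.9e-09). HSFA4A, a factor linked to oxidative stress, rose too (log2 change 1.13, adjusted p = 1.5e-12 by limma). Of the other cytosolic chaperones and co-chaperones, 13 of 16 rose and 2 fell in H89C4-7 (median log2 change 0.36), 9 and 1 in H89C11-7 (0.21), and 1 and 6 in NEET5-4 (0.03). Leaving out 1 library moved small counts: in NEET5-4 higher calls became 2 without Col replicate 2. The J-domain proteins J2 and J3 rose in H89C4-7 (log2 changes 1.05 and 0.66, limma adjusted p = 4.6e-16 and 2.2e-11) and fell in NEET5-4 (-0.31 and -0.24, limma adjusted p = 1.1e-05 and 6.2e-04). FES1B, the paralog of FES1A, fell in H89C4-7, to 232 ± 23.54, against 715 ± 30.6 in Col (SD, n = 3 each), a log2 change of -1.62, adjusted p = 8.5e-17 by limma.

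Among other heat-responsive genes, 5 of 8 rose and 1 fell in H89C4-7 (median log2 change 0.44), 5 and 1 in H89C11-7 (0.22), and 0 and 4 in NEET5-4 (-0.47). Leaving out 1 library moved small counts: in H89C11-7 higher calls became 3 without Col replicate 2; in NEET5-4 higher calls became 1 without Col replicate 1; in NEET5-4 lower calls became 2 without NEET5-4 replicate 2. Of all tested genes, 33.6% and 33% were higher and lower in H89C4-7. DREB2A and DREB2C, activators that act above HSFA3 in heated and dry plants, rose in H89C4-7, to 2174 ± 90.73 and 994 ± 117 normalized counts, against 229.6 ± 28.0 and 35.04 ± 5.27 in Col (SD, n = 3 each). Their log2 changes in that line were 3.24 ± 0.102 and 4.79 ± 0.223 SE (limma adjusted p = 3.3e-19 and 1.0e-15), beside a largest rise among the members of 3.50. GOLS2, the relative of GOLS1, fell in all 6 lines, though in NEET11-9 not without NEET11-9 replicate 2 (log2 change -0.59, limma adjusted p = 0.054). It averaged 26.3 ± 3.99 in H89C4-7 and 34.6 ± 3.77 in NEET5-4, against 191 ± 19.8 in Col (SD, n = 3 each), with log2 changes of -2.82 and -2.43 (limma adjusted p = 1.9e-13 and 1.5e-11).

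Chaperones of the organelles were on 3 of the lists, and the shares of all tested genes in these lines were 33.6% and 33% higher and lower in H89C4-7, 19.8% and 17.9% in H89C11-7 and 14.1% and 16.9% in NEET5-4. Of the ER chaperones and genes of the unfolded protein response, 9 of 18 rose and 3 fell in H89C4-7 (median log2 change 0.24), 13 and 0 in H89C11-7 (0.19), and 0 and 2 in NEET5-4 (0.01). Leaving out 1 library moved small counts: in H89C11-7 lower calls became 1 without H89C11-7 replicate 2; in NEET5-4 higher calls became 1 without Col replicate 1, Col replicate 2 or NEET5-4 replicate 2; in NEET5-4 lower calls became 5 without Col replicate 1. BZIP28 and BZIP60, the factors that switch on the unfolded protein response, rose in H89C4-7 (log2 changes 0.90 and 0.98, limma adjusted p = 6.9e-14 and 7.6e-14), and the calreticulin CRT1A fell (-0.47, adjusted p = 3.1e-09 by limma). Of the plastid chaperones, 5 of 9 rose and 1 fell in H89C4-7 (median log2 change 0.16), 8 and 0 in H89C11-7 (0.24), and 2 and 2 in NEET5-4 (-0.02). Leaving out 1 library moved small counts: in H89C4-7 lower calls became 2 without Col replicate 3; in NEET5-4 higher calls became 1 without Col replicate 3 or NEET5-4 replicate 1; in NEET5-4 lower calls became 1 without Col replicate 2. CLPC1, a chaperone of plastid protein import and proteolysis, and CPHSC70-1, the plastid HSP70, rose in H89C4-7 (log2 changes 0.55 and 0.31, limma adjusted p = 2.4e-11 and 1.2e-07), and the chaperonin subunit CPN60B2 fell (-0.43, adjusted p = 8.0e-09 by limma). Of the mitochondrial chaperones, 3 of 7 rose and 3 fell in H89C4-7 (median log2 change -0.13), 7 and 0 in H89C11-7 (0.43), and 1 and 3 in NEET5-4 (-0.08). Leaving out 1 library moved small counts: in NEET5-4 higher calls became 2 without Col replicate 1. The mitochondrial HSP70s MTHSC70-2 and MTHSC70-1 rose in H89C4-7 (log2 changes 0.48 and 0.32, limma adjusted p = 3.9e-08 and 5.6e-06), and the co-chaperonin CPN10 fell (-0.40, adjusted p = 1.3e-06 by limma). MTHSC70-2 fell in NEET5-4 (log2 change -0.70, adjusted p = 1.6e-10 by limma).

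The members were also read by the heat shock elements upstream of them, leaving out HSP17.4, HSP17.6II and APX2. Of the 5 with 3 units in a row, 5 rose in H89C4-7 (median log2 change 2.16), of the 14 with either 2-unit motif 13 (median 1.31), and of the 21 with neither 18 (median 0.69), beside 33.6% of all tested genes. Of these sets 4, 10 and 16 members fell in NEET5-4 (medians -1.13, -0.64 and -0.59), beside 16.9%. The set with 3 units is contained in that with either motif, and the difference was not tested. Members with no match include HSP70-4 and HSC70-3, whose log2 changes in H89C4-7 were 1.70 and 1.66.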

How the data were processed

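RNA of 21 libraries from whole seedlings, 3 in each of 7 groups, was sequenced. The submitters' processing notes list FastQC 0.11.7, STAR 2.4.0.1, DESeq2 1.20.0 and the TAIR10 genome. The deposited table holds a signal: read counts per gene after division by a size factor for each library. This reading rests on the values themselves, since 100% became whole reads within a tolerance of 0.001 when scaled back. No source used here gives the read counter or its settings.

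Values were analysed as log2(normalized count + 1). The 20699 genes with at least 10 normalized counts in at least 3 libraries were tested by limma-trend (limma 3.58.1, R 4.3.3), with a mean for each group over all 21 libraries and 14 residual degrees of freedom. Adjusted p-values are Benjamini-Hochberg values over all tested genes, and a call is an adjusted p under 0.05. The H89C and NEET lines were compared on 6 line means. Exonic lengths and sequences came from TAIR10.1. The fit was tested on simulated data.

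The members and gene lists were chosen with earlier results of these data known. The text names all 43 members in order of class, AtNEET, and up to 3 genes of each further list with the smallest adjusted p in H89C4-7. SESA1 was named after its values were seen. Values in every sample are given for called members with the largest changes of a class, and for HSC70-2 and HSFA3, which were picked after their values were seen. Alternatives were other pseudocounts (0.5 and 5), a filter of 50 or none, TMM scaling, quantile normalization, a replicate block, only the groups compared, edgeR 4.0.16 and DESeq2 1.42.0 on the recovered counts, and leaving out each library or line. Leaving out both libraries that stand apart, and the count of members with every H89C library above every NEET library, were added after the data were seen, as were counts without members that passed the filter through 1 construct or Col alone.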

Additional observations from a re-analysis of the deposited data

Results flagged for a closer look

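Pairs of lines differed in the members by a direct limma test without Col. H89C4-7 was higher than NEET5-4 for 37 of the 38 tested members and lower for 0, beside 34.5% and 32.8% of all tested genes. Without HSP17.4, HSP17.6II and APX2, it was higher for 34 of 35. These lines had the highest and the lowest mean for most members, so this count largely restates the order of the group means. Within the H89C construct, H89C4-7 was higher than H89C11-7 for 25 members and lower for 2, HSC70-2 and HSFB1, beside 31.4% and 32.3% of all tested genes. Within the NEET construct, NEET5-4 was higher than NEET10-10 for 1 member, HSP70B, and lower for 18, beside 12.4% and 15.8% of all tested genes. The higher count was 0 without NEET10-10 replicate 2 or 3 or NEET5-4 replicate 1 or 2, and 2 without NEET10-10 replicate 1. The cause of these differences was not tested.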

How the results depend on the processing

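Counts of members called higher in H89C4-7, H89C11-7 and H89C23-10 and called lower in NEET5-4 stayed within 1.5 times of the reported ones under all alternatives run for them. Small counts moved. With the filter at 50, members called lower were 0 in H89C4-7, in H89C23-10 and for the H89C mean, because APX2 (and, for the mean, HSP18.2) was no longer tested. Without HSP17.4, HSP17.6II and APX2, which passed the filter through 1 construct or Col alone, they were 0, 0 and 1. Without both libraries that stand apart they were 2 in H89C4-7 and 5 in H89C11-7, members called higher were 1 in NEET10-10, 2 in NEET5-4 and 1 for the NEET mean, and H89C4-7 against H89C11-7 had 4 lower and NEET5-4 against NEET10-10 had 2 higher. When only the groups compared were fitted, NEET10-10 had 0 higher and 13 lower, NEET11-9 had 2 higher, the NEET mean had 1 higher, and NEET5-4 against NEET10-10 had 0 higher and 11 lower. Of all 20699 tested genes, these fits called 1425 higher and 1072 lower in NEET10-10 and 266 higher in NEET11-9. They called 1806 higher for the NEET mean, and 1901 higher and 2775 lower in NEET5-4 against NEET10-10. Quantile normalization gave 2 higher in NEET5-4, 1 lower for the H89C mean and 4 lower in H89C4-7 against H89C11-7. With no filter, with edgeR and with DESeq2, the H89C mean had 1 lower and the NEET mean 1 higher. The NEET mean had 1 higher without the line NEET10-10, and 1 higher and 11 lower without the line NEET5-4. Of all 20699 tested genes, 2333 were higher without NEET10-10, and 1838 were higher and 1906 lower without NEET5-4. Without the line NEET11-9, 24 members had every H89C library above every NEET library, beside 6.16% of all tested genes. The cause of these moves was not tested except for the filter and the members left out.

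Leaving out each library in turn gave 1 to 2 members higher in NEET5-4 (2 without Col replicate 2), 1 to 2 lower for the H89C mean (1 without Col, H89C11-7 or H89C23-10 replicate 3), 1 to 2 higher for the NEET mean (1 without Col replicate 1, Col replicate 3 or NEET11-9 replicate 3), and 0 to 2 higher in NEET5-4 against NEET10-10 (2 without NEET10-10 replicate 1, and 0 without NEET10-10 replicate 2 or 3 or NEET5-4 replicate 1 or 2). Signs turned for HSFB1 in H89C4-7 under quantile normalization (log2 change -0.01), HSC70-1 in NEET10-10 under quantile normalization (0.042) and ROF2 in the NEET mean without the line NEET5-4 (0.031).

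Replicate numbers did not pair the samples: of 63 pairs of libraries with the same number, 0 had a correlation of deviations over 0.1, and 7 libraries correlated best with their own number. With a replicate block, H89C4-7 had 33 members higher, NEET5-4 28 lower and H89C4-7 against NEET5-4 36 higher.

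Calls that were tested and held under every alternative numbered 27 of 34 in H89C4-7, 24 of 29 in NEET5-4, 19 of 26 in H89C11-7, 15 of 20 in H89C23-10, 11 of 24 in NEET10-10 and 5 of 11 in NEET11-9. Depth limits HSP21, HSP22.0, HSP23.6, HSP26.5 and HSFA7B, which were read at few counts.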
